A study of Vuilleminia comedens with 3 samples.

Results

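Heat shock proteins and folding chaperones were described here in the wood-decay fungus Vuilleminia comedens, as 275 assembled transcripts out of 22605 that had a database match and 81106 in all. A transcript was a member when the name of its best-matching entry held a chaperone or protein-folding term (heat shock, HSP, chaperonin, DnaJ, calnexin, T-complex protein, prefoldin, disulfide isomerase, cyclophilin or peptidyl-prolyl), leaving out transcription factors and copper chaperones. The rule used no measured value, but it was set with earlier results of these data known. Names therefore come from matched genes of other fungi, and no protein function was measured.

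The samples were 3 RNA libraries of strain VcWVJH1, which the labels call independent replicates from separate blocks. In each, beech blocks of 2 cm3 had been colonised for about 8 weeks on 0.5% malt extract, scraped clean, and paired with a block of the same strain for 7 days at 20 °C in a self-pairing. An elastic band held the pair for the first 3 days, and RNA came from the side of each block next to the contact. All libraries share this treatment, strain and autoclaved wood, and no other condition was analysed here, so levels and their spread between replicates are given and no condition is compared. The count columns carried no sample names and are called libraries A, B and C. The sample titles number the replicates 2, 3 and 4, whereas the deposited count table is numbered 1, 2 and 3, so which column holds which replicate is not known. They held 111754018, 68151997 and 64236917 counts, of which 2 transcripts outside this set took 67.0% to 70.1%, leaving 33450738, 22487890 and 19747416 counts for all others.

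Chaperones bind unfolded or partly folded proteins and keep them from clumping until they reach their native shape. Hsp70 proteins bind short exposed stretches of a client in cycles of ATP hydrolysis that DnaJ proteins start, and Hsp90 acts later on proteins that are nearly folded. Ring-shaped chaperonins enclose a client in a chamber, prefoldin hands clients to the cytosolic ring, and protein disulfide isomerases and prolyl isomerases speed the slow chemical steps of folding. Fungi that secrete enzymes into wood pass these through the endoplasmic reticulum, where members of the same families work.

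For libraries A, B and C the members held 273726, 178973 and 167308 counts. Relative to the counts outside the 2 dominant transcripts library A gave 0.818% (exact 95% binomial interval 0.815 to 0.821), library B gave 0.796% (0.792 to 0.800) and library C gave 0.847% (0.843 to 0.851). Per 1000000 of those remaining counts, a unit called residual CPM here, the sum was 8205 ± 258 (SD, n = 3). The 3 libraries thus gave nearly the same total, although the counting intervals do not overlap.

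A level per transcript is given as RPKM, reads per kilobase of transcript and per 1000000 counts in the library, and values below are means ± SD over the 3 libraries. The median member had 0.587 RPKM ± 0.0836 (SD, n = 3), beside 0.500 ± 0.0768 (SD, n = 3) for all annotated transcripts. A mean of at least 10 RPKM was reached by 35 of the 275 members, or 12.7%, against 10.8% of all annotated transcripts, a share near the background. It was reached by 21 of 122 members with their best match in the crust fungus Punctularia strigosozonata (17.2%, against 18.3%) and 12 of 146 matched to the bracket fungus Trametes versicolor (8.22%, against 4.54%). Levels were concentrated in few members. The highest held 19.9% of the summed RPKM, the highest 10 held 57.4% and the highest 50 held 90.1%. Ranked by reads, which are not scaled for length, these shares were 11.0%, 60.9% and 94.4% of the member reads. Values per library are given in the order A, B, C throughout. At least 100 reads over the 3 libraries were counted for 128 members, or 46.5% (50.7% of all annotated transcripts), for 80 of the P. strigosozonata matches (65.6%, against 78.7%) and for 46 of the T. versicolor matches (31.5%, against 26.4%). Fewer than 10 reads were counted for 50 members (18.2%, against 20.8% of all annotated transcripts). A count of 0 in at least 1 library was found for 83 (30.2%, against 34.2%), so both shares lay near the background.

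The members fell into 14 classes by name, and no entry was named calnexin. The prolyl isomerases had the highest summed level, at 681, 518 and 561 RPKM, followed by Hsp70 at 281, 283 and 275 RPKM and prefoldin at 183, 176 and 238 RPKM. Each of these classes lay above the next in every library. Below them, Hsp90 (147 RPKM ± 12.0, SD, n = 3), DnaJ (137 ± 17.2) and protein disulfide isomerases (132 ± 16.3) overlapped. The cytosolic chaperonin CCT summed to 74.2 RPKM ± 12.1 (SD, n = 3) and small heat shock proteins to 52.6 ± 3.21 (SD, n = 3). The mitochondrial pair of GroL and Hsp10 had 37.2 ± 6.78 and 39.7 ± 14.8 RPKM (SD, n = 3). Sums over isoforms and fragments depend on how shared reads were assigned, a step the sources used here do not describe. They also add the level of each piece, so a gene assembled in pieces can count more than once.

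**Figure D1:**
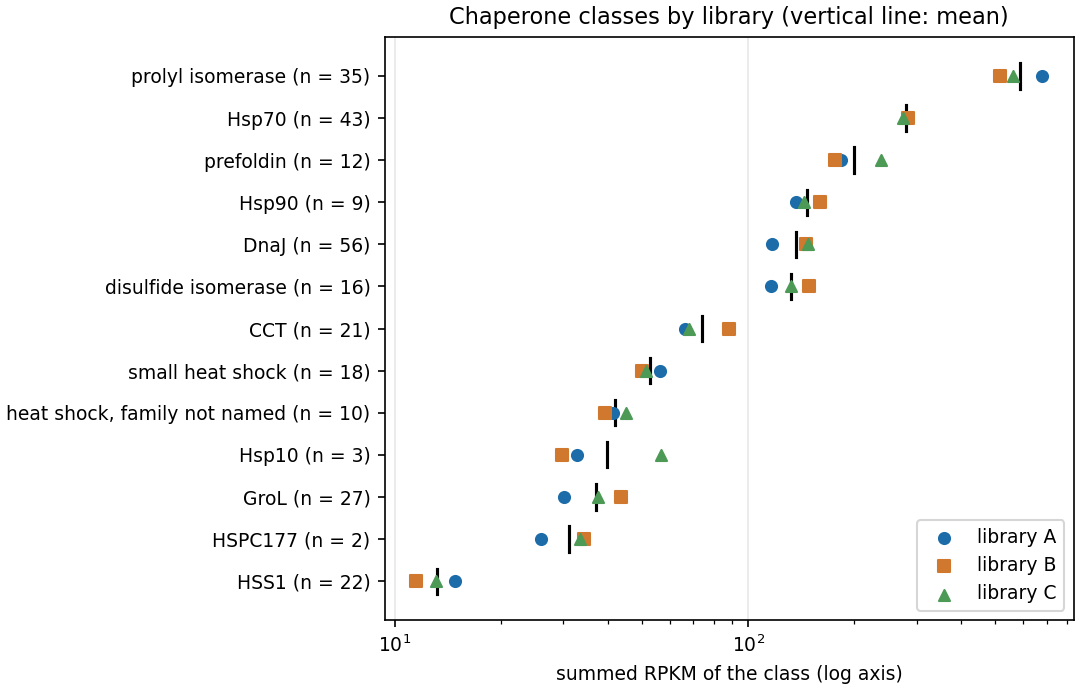
Summed RPKM of each class on a log axis, with 1 symbol per library and a vertical line at the mean of the 3 libraries, n being the number of transcripts. Prolyl isomerases (518 to 681 RPKM), Hsp70 (275 to 283) and prefoldin (176 to 238) do not overlap, while Hsp90, DnaJ and disulfide isomerases do. The single Hsp30 transcript, with 0 reads in libraries B and C, is not drawn.

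The order leaned on which species the entries came from. Among members whose best match was in P. strigosozonata, a fungus of the same order as V. comedens, Hsp70 led with 279 RPKM ± 3.90 (SD, n = 3), and prolyl isomerases had only 47.9 ± 4.97 and prefoldin 60.8 ± 8.12. Most of the prolyl isomerase level came from entries of T. versicolor, at 539 RPKM ± 89.5 (SD, n = 3). Most of the prefoldin level came from 1 transcript matched to Stereum hirsutum.

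Hsp70 proteins bind nascent and stress-damaged chains and work in the cytosol, mitochondria and endoplasmic reticulum. The class held 43 transcripts of 35 assembler genes, the groups of isoforms set by the assembler, but these matched only 7 database entries. Its sum was nearly constant, with the highest library 1.03-fold above the lowest. The leading transcript was TRINITY_DN25857_c0_g1_i1 of 1962 bp, matched to heat shock cognate 70 (PUNSTDRAFT_105292), a form that is made without heat stress in many eukaryotes. It had 19368, 10539 and 11594 counts, or 88.3, 78.8 and 91.99 RPKM, and its mean of 86.4 RPKM ± 6.80 (SD, n = 3) ranked 332 among the annotated transcripts. The libraries lay close together, with library B lowest.

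A second isoform of the same assembler gene, TRINITY_DN25857_c0_g1_i2 of 3478 bp, matched another entry, heat shock protein 70 PUNSTDRAFT_128685, with 16914, 13279 and 11911 counts and a mean of 50.95 RPKM. The 2 isoforms changed place between libraries in their share of reads, which is not scaled for length. Per base the shorter cognate isoform was the higher in every library. In library A the cognate isoform took 53.4% of their reads (exact 95% interval 52.9 to 53.9), against 44.2% (43.6 to 44.9) for library B and 49.3% (48.7 to 49.97) for library C. These intervals do not overlap, but they cover counting error only.

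The next Hsp70 gene by level was TRINITY_DN25274_c0_g1_i1 of 5083 bp, the longest member, matched to heat shock protein 70 PUNSTDRAFT_145757. Its RPKM was 37.1, 42.3 and 36.3, a ratio of 1.08 in residual CPM between the highest and lowest library. That entry was also the best match of 18 further transcripts, down to 207 bp long and 0.0114 RPKM, and the long transcript held 81.6% of the reads of all 19. The 311 bp transcript TRINITY_DN9051_c0_g1_i1, matched to PUNSTDRAFT_128685, reached 22.0 RPKM and was the only member under 500 bp at 10 RPKM or more.

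Heat shock protein HSS1, a name carried by an Hsp70 of the rust fungus Puccinia graminis, was matched by 22 more transcripts, all to the same T. versicolor entry. They were spread thinly, none above 1.12 RPKM, and summed to 13.1 RPKM ± 1.67 (SD, n = 3). The highest, TRINITY_DN22155_c0_g1_i2, had 1.17, 1.17 and 1.01 RPKM. The next, TRINITY_DN16752_c0_g1_i1, had 170, 21 and 17 counts, and so rests on library A.

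Hsp90, which stabilises kinases and receptors among many clients, was carried mostly by TRINITY_DN28276_c1_g1_i1, matched to HSP90-domain-containing protein PUNSTDRAFT_105183. This 2431 bp transcript had 28595, 21720 and 17897 counts, or 105, 131 and 115 RPKM. Its mean of 117 RPKM ± 13.1 (SD, n = 3) made up 79.7% of the class. The T. versicolor-matched Hsp90 TRINITY_DN29561_c0_g1_i1 followed at 12.7, 15.1 and 9.71 RPKM, with library C lowest. The hsp90-like TRINITY_DN28438_c1_g1_i2 (PUNSTDRAFT_97495) had a mean of 12.1 RPKM, but a further isoform of that assembler gene matched a hypothetical protein, at 21.5 RPKM ± 4.17 (SD, n = 3).

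DnaJ proteins, also called Hsp40, deliver clients to Hsp70 and start its ATP hydrolysis. They were the most varied class, with 56 transcripts on 27 entries. The class median was 0.573 RPKM, against means of 23.2 for the highest transcript and 11.9 for the next. The highest, TRINITY_DN11074_c0_g1_i1 (PUNSTDRAFT_80812), had 16.9, 26.1 and 26.8 RPKM and held 16.97% of the class sum. Library A was below the other two here, whereas TRINITY_DN21631_c0_g1_i1 (STEHIDRAFT_76849) was level, at 11.5, 12.2 and 12.1 RPKM. The ratio of summed Hsp70 to summed DnaJ was 2.40, 1.95 and 1.86, highest in library A.

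Of the 27 DnaJ transcripts with at least 100 reads, from 13 assembler genes, 16 were lowest in library A, against 24.8% of all annotated transcripts with as many reads. The number was 17 with TMM, DESeq2 or whole-library scaling, where the background rose to 32.0% to 38.5%. Over all 128 members with as many reads, 46 were lowest in library A (35.9%). The class and these scalings were picked out after the values were seen.

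Small heat shock proteins hold unfolding proteins without using ATP. The highest were TRINITY_DN20829_c0_g1_i1 and TRINITY_DN20829_c0_g2_i1, of 1198 and 1201 bp, both matched to HSP20-like chaperone PUNSTDRAFT_129120. The former had 22.3, 21.2 and 19.1 RPKM, a mean of 20.8 ± 1.63 (SD, n = 3), and the latter 21.0, 20.1 and 19.4, a mean of 20.2 ± 0.827 (SD, n = 3). With near-equal lengths, the same entry and the same assembler component they may share reads, so their single values are uncertain. Their sequences were not compared. The 9 transcripts matched to the entry named small heat shock protein (PUNSTDRAFT_111835) were far lower, between 0.350 and 1.75 RPKM. Heat shock protein 30 was matched by a single transcript, TRINITY_DN16231_c0_g1_i1, with 113 counts in library A and 0 in libraries B and C. With library B set to a floor of 3 counts the ratio of library A to B was 25.3. The exact 95% lower limit of that ratio from 113 against 0 counts was 20.3. It covers counting error only and rests on 1 transcript in 2 libraries.

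**Figure D2:**
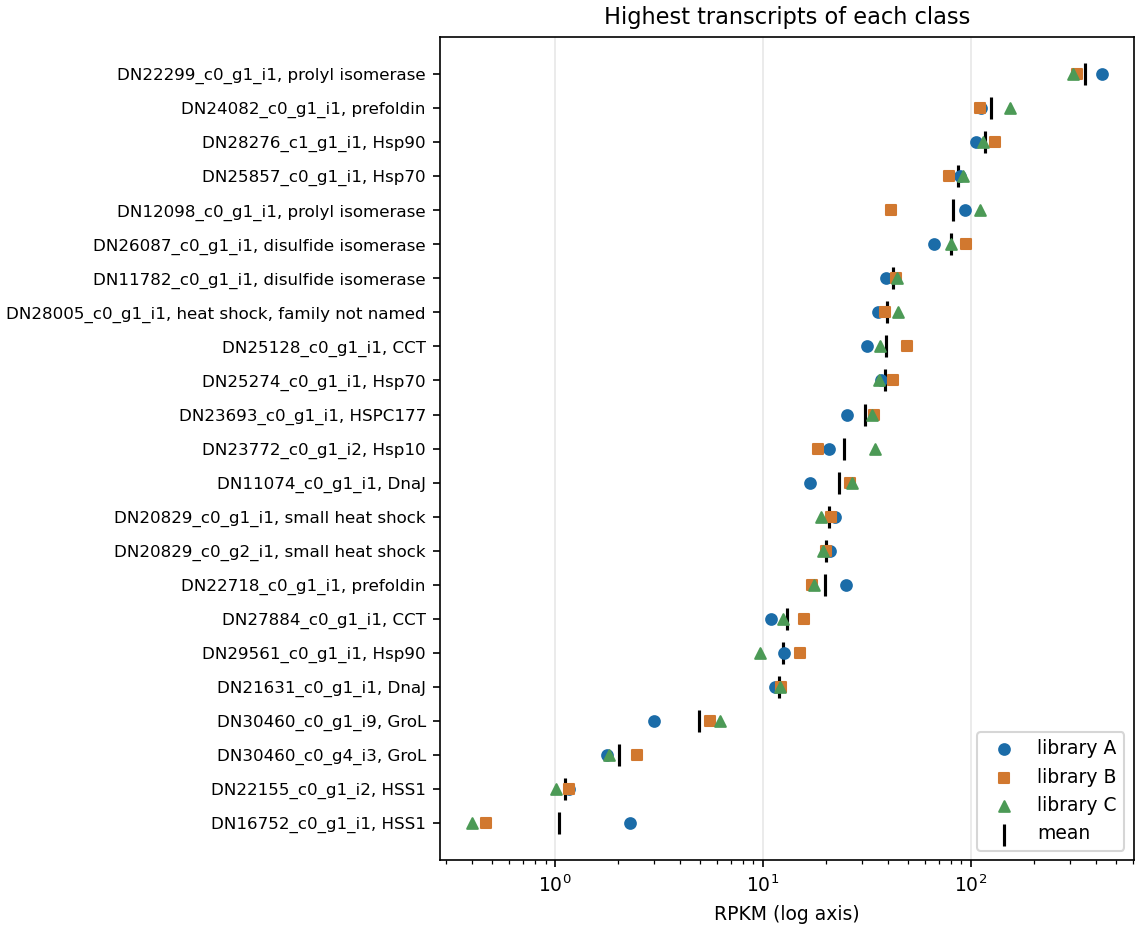
RPKM on a log axis of the highest transcripts of each class, by the highest isoform of up to 2 assembler genes, with a symbol per library and a bar at the mean. The cyclophilin DN22299_c0_g1_i1 lies highest (309 to 428 RPKM), the libraries of the HSP20-like pair nearly coincide, and HSS1 transcript DN16752_c0_g1_i1 stands apart in library A. Names leave out the prefix TRINITY.

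GroL, the mitochondrial Hsp60, forms a barrel that its lid protein Hsp10 closes. The GroL transcripts were pieces. No piece was longer than 1236 bp or reached 10 RPKM, and 21 of the 27 came from a single assembler component, TRINITY_DN30460, which held 94.3% of the class reads. Within that component 9 pieces matched P. strigosozonata and 12 T. versicolor. The highest piece, TRINITY_DN30460_c0_g1_i9, had 2.98, 5.56 and 6.18 RPKM, with library A lowest. TRINITY_DN30460_c0_g4_i3 had 1.78, 2.47 and 1.82 RPKM.

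Hsp10 was led by the isoforms TRINITY_DN23772_c0_g1_i2 and TRINITY_DN23772_c0_g1_i1, the former at 20.9, 18.4 and 34.7 RPKM. Library C was highest for the class, at 56.8 RPKM against 32.8 and 29.7. The ratio of summed Hsp10 to summed GroL was 1.09, 0.679 and 1.51, so the replicates did not agree on which sum was higher. The GroL sum adds the RPKM of many pieces, each divided by its own short length. It is therefore not the level of a whole GroL transcript, and the ratio does not say which of the pair was higher.

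CCT, built from subunits of the T-complex protein family, folds actin and tubulin in the cytosol. Its leading transcript, TRINITY_DN25128_c0_g1_i1 (1776 bp, T. versicolor match), had 31.8, 49.2 and 36.6 RPKM, with library B highest. The zeta subunit Cct6, TRINITY_DN27884_c0_g1_i1, had 10.98, 15.8 and 12.5 RPKM in the same order of libraries. Only 6 of the 21 CCT transcripts had at least 100 reads, and their highest-to-lowest ratios in residual CPM stayed between 1.06 and 1.40.

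Prefoldin, a complex of small alpha and beta type subunits, was led by TRINITY_DN24082_c0_g1_i1 of 1182 bp, matched to prefoldin beta-like protein STEHIDRAFT_122647. It had 14778, 8920 and 11654 counts, or 112, 111 and 153 RPKM, and its mean of 125.4 RPKM ± 24.4 (SD, n = 3) was the second highest of all members. Libraries A and B were alike and library C was higher. The remaining subunits were lower. Prefoldin subunit 4, TRINITY_DN22718_c0_g1_i1 (PUNSTDRAFT_131924), had 25.0, 17.2 and 17.5 RPKM, and TRINITY_DN11563_c0_g2_i1 (PUNSTDRAFT_96162) had a mean of 19.7 RPKM. Prefoldin subunit 3, TRINITY_DN25480_c0_g1_i1, had a mean of 12.6 RPKM.

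Protein disulfide isomerases make and reshuffle disulfide bonds in the endoplasmic reticulum. TRINITY_DN26087_c0_g1_i1 (PUNSTDRAFT_107727) had 66.3, 95.02 and 80.6 RPKM, a mean of 80.6 ± 14.4 (SD, n = 3). TRINITY_DN11782_c0_g1_i1 (PUNSTDRAFT_100336) had 39.1, 43.9 and 44.1 RPKM. Together these transcripts made up most of the class. The 9 T. versicolor-matched ones summed to 3.19, 1.75 and 0.658 RPKM.

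Prolyl isomerases turn the peptide bond before proline, and cyclophilins are the family that cyclosporin binds. The cyclophilin TRINITY_DN22299_c0_g1_i1 of 737 bp, a T. versicolor match, had the highest mean RPKM of all members and ranked 46 among annotated transcripts. It had 35257, 16238 and 14622 counts, or 428, 323 and 309 RPKM, and a mean of 353 RPKM ± 65.1 (SD, n = 3). Library A was highest and libraries B and C were alike. This transcript alone held 60.2% of the class sum, and its mean exceeded the summed Hsp70 level.

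Second was TRINITY_DN12098_c0_g1_i1, named peptidyl-prolyl cis-trans isomerase, with 7000, 1865 and 4722 counts, or 94.1, 41.1 and 110 RPKM. Its highest and lowest library differed 2.88-fold in residual CPM (exact 95% counting interval 2.73 to 3.04), with library B low. The prolyl isomerases, a class picked out after its values were seen, had 21 transcripts with at least 100 reads, from 13 assembler genes. Library A was the highest for 15 of the 21, against 36.7% of all annotated transcripts and 38.3% of all members with as many reads. Under TMM, DESeq2 and whole-library scaling the number was 13, 12 and 13, against 26.3%, 23.7% and 28.5%.

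Isoforms of a prolyl isomerase gene shifted against each other between replicates. TRINITY_DN19693_c0_g1 had 3 isoforms of 1067 to 1366 bp, of which i1 matched a P. strigosozonata prolyl isomerase (PUNSTDRAFT_81051) and i2 and i3 a T. versicolor cyclophilin. In library A isoform i2 took 37.7% of the gene's reads (exact 95% interval 36.8 to 38.6), against 23.4% (22.5 to 24.3) for library B and 10.1% (9.35 to 10.8) for library C. Its counts were 4411, 1885 and 691, while those of i1 were 3816, 3351 and 3340 and those of i3 were 3466, 2826 and 2841. In residual CPM the highest and lowest library were 3.77 times apart for i2, but 1.48 times for i1 and 1.39 times for i3. This gene was singled out after its values were seen.

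**Figure D3:**
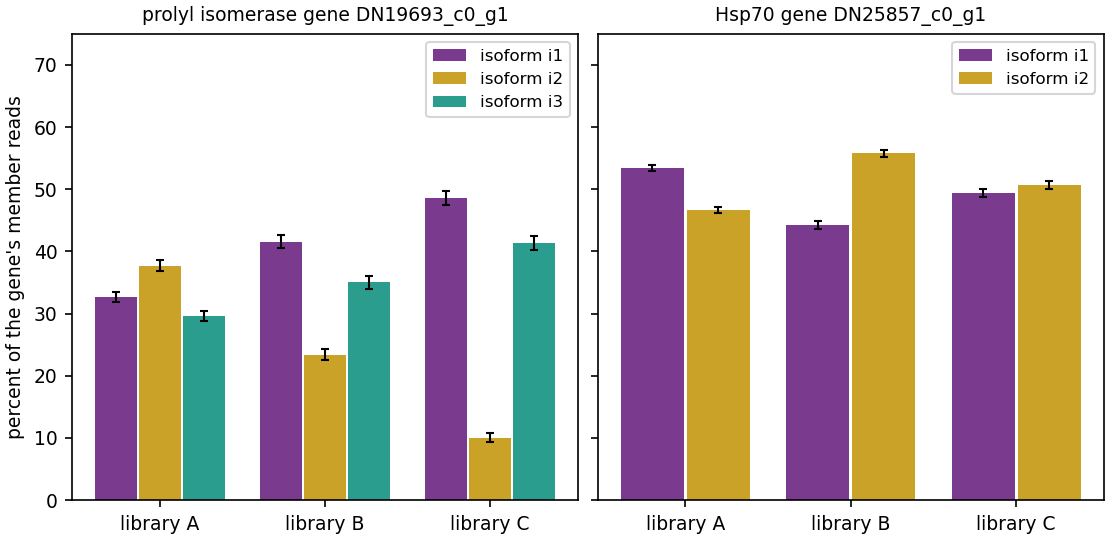
Share of each isoform in the member reads of its assembler gene, in percent by library, with exact 95% binomial intervals (counting error only) as error bars. Isoform i2 of the prolyl isomerase gene runs from 37.7% in library A to 10.1% in library C, and the Hsp70 isoforms lie between 44.2% and 55.8%.

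Some names say little or mislead. Among the 10 transcripts named only by heat shock terms without a family, TRINITY_DN28005_c0_g1_i1 (PUNSTDRAFT_127289, 2330 bp) held 94.3% of their level. It had 35.7, 38.5 and 44.4 RPKM. HSPC177 was taken in by its letters, although that is a human name for a membrane-remodelling ESCRT protein and no chaperone. Its transcript TRINITY_DN23693_c0_g1_i1 had 25.3, 34.2 and 33.4 RPKM.

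Spread between replicates was then read across all members. Among the 128 with at least 100 reads, 28 differed more than 2-fold between the highest and lowest library in residual CPM, or 21.9%, against 17.3% of all annotated transcripts. The median ratio was 1.46, beside 1.45 for all annotated transcripts. Members matched to P. strigosozonata stood at the background, with 12 of 80 over 2-fold (15.0%, against 14.9%). Of the T. versicolor-matched members 16 of 46 were over 2-fold (34.8%, against 21.9%). Of the 28, library A was the highest in 16 (57.1%, against 48.8% of all annotated transcripts over 2-fold) and library B the lowest in 15 (53.6%, against 49.8%), a lean that all annotated transcripts over 2-fold also had. With only 2 libraries compared, fewer passed on both sides. Without library A 7 of 92 did (7.61%, against 8.05%), without library B 14 of 114 (12.3%, against 7.83%) and without library C 12 of 113 (10.6%, against 7.55%).

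By class, no CCT, prefoldin or disulfide isomerase transcript with at least 100 reads was over 2-fold, but 9 of 21 prolyl isomerases were. DnaJ had 5 of 27, GroL 4 of 16, HSS1 2 of 10, small heat shock proteins 2 of 9, Hsp70 2 of 19 and Hsp90 1 of 4. Both Hsp10 transcripts with as many reads, isoforms of 1 assembler gene, and the single Hsp30 transcript were over 2-fold as well. Isoforms of an assembler gene count singly here. The 21 prolyl isomerases came from 13 assembler genes, the 27 DnaJ transcripts from 13 and the 16 GroL transcripts from 4. Whether these shares differ between classes was not tested.

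**Figure D4:**
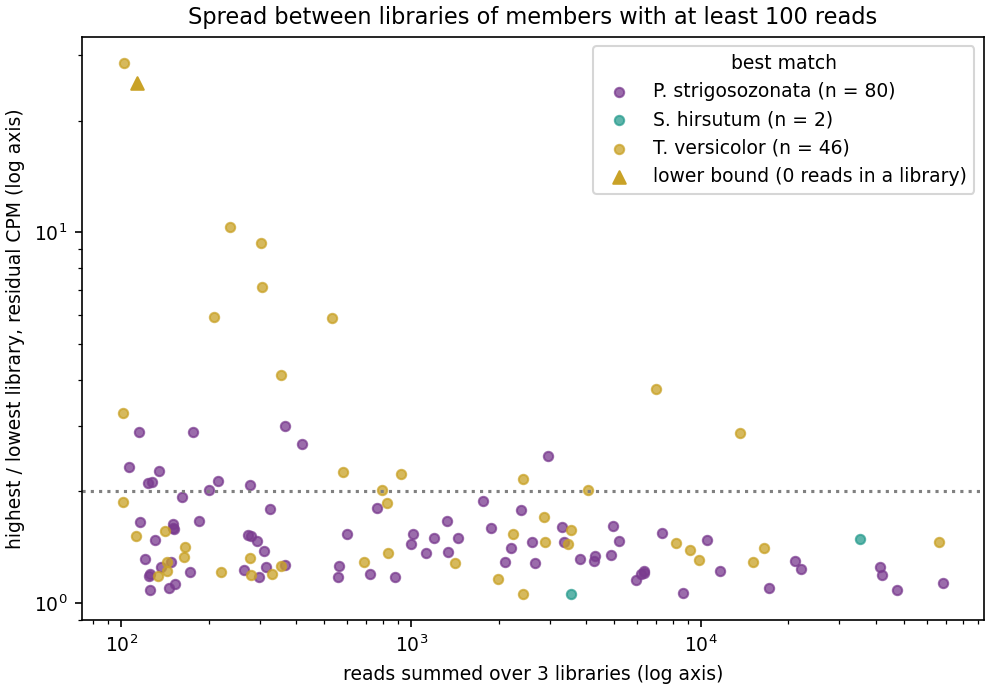
Ratio of the highest to the lowest library (residual CPM, log axis) against reads summed over the libraries (log axis) for the 128 members with at least 100 reads, coloured by the species of the best match, with a dotted line at 2-fold. Members matched to P. strigosozonata reach at most 3.01, and the highest points, up to 28.6, are T. versicolor matches with few reads. The triangle is the Hsp30 transcript, drawn at 25.3 with its 0 set to 3 counts.

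The 5 largest ratios were all of T. versicolor matches, highest in library A and low in library B, and 4 of them were prolyl isomerases. TRINITY_DN14742_c0_g1_i1 had 85, 2 and 15 counts, a ratio of 28.6 with an exact 95% counting interval of 7.67 to 240. The Hsp30 transcript came next. TRINITY_DN19902_c0_g1_i1 had 184, 12 and 40 counts, a ratio of 10.3 (5.76 to 20.3).

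TRINITY_DN19104_c0_g1_i1 had 237, 17 and 50 counts and TRINITY_DN12179_c0_g1_i1 had 233, 22 and 50, with ratios of 9.37 and 7.12. These last matched the same entry as the abundant cyclophilin TRINITY_DN22299_c0_g1_i1, whose ratio was 1.46. TRINITY_DN14742_c0_g1_i1, TRINITY_DN19902_c0_g1_i1 and TRINITY_DN20106_c0_g1_i1 shared an entry with TRINITY_DN12098_c0_g1_i1. The last, which is the longest, had 39.4% of its depth-scaled reads in library A. The shorter ones had 74.97%, 68.2% and 46.3%, so by this share the third of them, with 314, 36 and 183 counts, lay nearest the long transcript. Its highest-to-lowest ratio was still 5.86, with library A highest. The long transcript had 2.88, with library C highest.

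Length went with level, among the members as among all annotated transcripts. The 135 members of at least 500 bp had a median of 2.07 RPKM ± 0.0577 (SD, n = 3), beside 1.62 ± 0.0765 for annotated transcripts of that length. The 140 shorter members had 0.154 ± 0.126, beside 0.0785 ± 0.136. By library these medians were 0.299, 0.0899 and 0.0733 for the members, and 0.235, 0 and 0 for annotated transcripts of that length. Both means thus lean on library A. At least 100 reads were counted for 11 of the 140 (7.86%, against 8.07% of annotated transcripts of that length) and for 117 of the 135 (86.7%, against 84.1%).

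**Figure D5:**
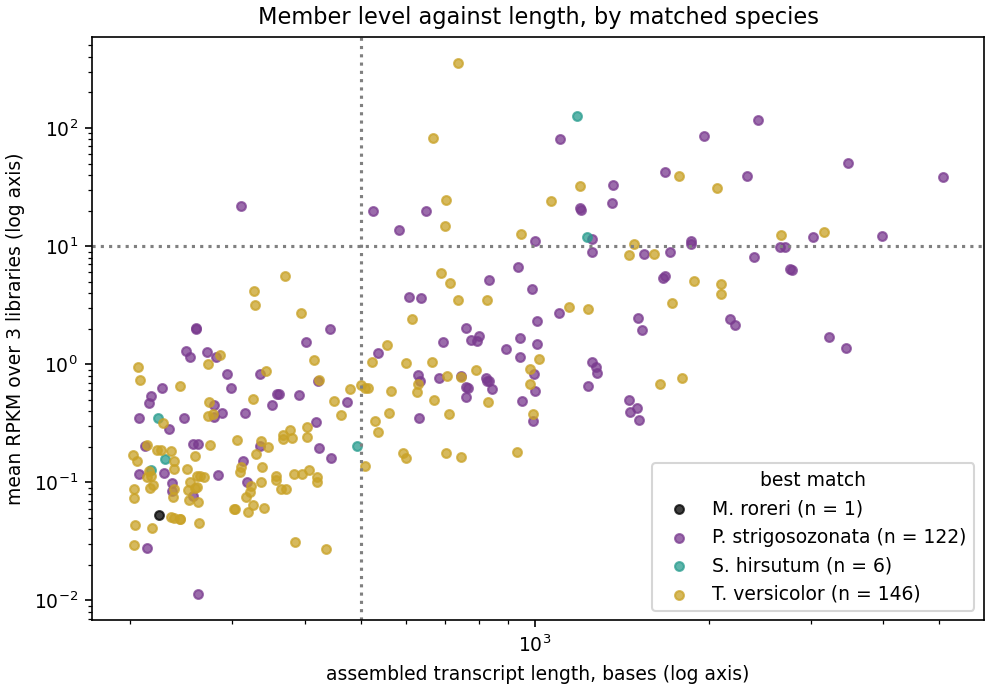
Mean RPKM over the 3 libraries against transcript length in bases, both on log axes, for the 275 members, coloured by species of the best match, with dotted lines at 500 bp and 10 RPKM. A single member under 500 bp lies above 10 RPKM, at 22.0, and most of the 146 T. versicolor matches are short.

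The best match was in T. versicolor for 146 members, in P. strigosozonata for 122, in S. hirsutum for 6 and in Moniliophthora roreri for 1. Median lengths were 374.5 bp for the T. versicolor and 771.5 bp for the P. strigosozonata matches. T. versicolor matches under 500 bp, 90 in number, summed to 56.7, 15.9 and 31.6 RPKM. All annotated T. versicolor matches of that length summed to 7790, 4388 and 5017 RPKM, likewise highest in library A and lowest in library B. A count of 0 in at least 1 library was found for 66 of the 90 (73.3%, against 84.1%). Those of at least 500 bp summed to 792, 679 and 718 RPKM. Short P. strigosozonata matches, 45 in number, summed to 53.5, 49.6 and 36.9 RPKM.

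Reads almost wholly from library A, over 90% after depth scaling, were seen for 3 of the 194 members with 20 reads or more (1.55%), against 2.94% of all annotated transcripts. All 3 were T. versicolor matches, where the background was 8.57%, and none of the 106 P. strigosozonata matches was among them (background 0.0563%). Next to the Hsp30 transcript they were TRINITY_DN15897_c0_g1_i1, named heat shock protein 70, with 30, 0 and 0 counts, and TRINITY_DN21815_c0_g1_i2, named heat shock protein, with 68, 1 and 2 counts. The species of the best match did not always separate assembler genes. Of the 32 with several members, 4 had matches to both T. versicolor and P. strigosozonata, and the rest to a single species.

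Medians also depended on the species of the match. P. strigosozonata-matched members had a median of 1.10 RPKM ± 0.109 (SD, n = 3), beside 1.58 ± 0.0591 for all P. strigosozonata matches, and 2.30 ± 0.182 beside 2.05 ± 0.105 at 500 bp or more. For comparison, 18 P. strigosozonata-matched proteasome products, which degrade proteins that fail to fold, had a median of 9.89 ± 1.41 (SD, n = 3). Of these 16 were at least 500 bp long, against 77 of the 122 P. strigosozonata-matched members. All 48 proteasome products had a median of 0.428 ± 0.215 (SD, n = 3), beside 0.587 ± 0.0836 for all members. The summed RPKM was 486 ± 55.7 for all 48 proteasome products and 1773 ± 39.2 for the members.

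Folding factors outside the set were looked up by 14 name patterns, of which 6 had matches, to 55 transcripts. Calreticulin, the soluble partner of calnexin in binding glycoproteins, was abundant. TRINITY_DN18503_c0_g1_i1 had 93.0, 111 and 75.4 RPKM, with library B highest. The nascent polypeptide-associated complex, which meets chains at the ribosome, was represented by its alpha subunit TRINITY_DN21702_c0_g1_i1 at 44.1, 44.5 and 49.4 RPKM.

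Thioredoxin, a small disulfide reductase, was led by TRINITY_DN21088_c0_g1_i1 (PUNSTDRAFT_49094) at 77.1 RPKM ± 12.1 (SD, n = 3). The endoplasmic oxidoreductin TRINITY_DN18470_c0_g1_i1, of the family that passes oxidising power to disulfide isomerases, was much lower at 4.33 ± 0.923 (SD, n = 3). The mitochondrial protease La, TRINITY_DN29950_c0_g1_i1, had 8.995 ± 3.06 (SD, n = 3). The prolyl isomerase FKBP12, TRINITY_DN5503_c0_g1_i1 of 274 bp, had 14.4, 2.89 and 13.8 RPKM, with library B low. The 8 patterns with no match, among them heat shock transcription factor and GrpE, say only that no matched name held those words.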

How the data were processed

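RNA from 3 self-paired blocks was poly(A)-selected, made into stranded libraries and read as pairs of 125 bp, per the labels' protocols. The authors deposited whole-number counts per assembled transcript with its length, not normalised, and a table of best-matching entries, which per the file headers were annotated with a database of their own. Cutadapt 1.2.1, Bowtie2 2.2.6 and SAMtools 0.1.19 are named per the submitters' processing notes. The sources used here do not name the search tool or the counting rule, strand included. They name the assembler only through the prefix TRINITY of the transcripts. No transcript sequences were used.

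Of 29875 annotation lines, repeats were dropped, which left 22605 transcripts. Members, classes and lists were chosen with earlier results of these data known. RPKM used the whole library total, and residual CPM the counts outside the 2 most abundant transcripts. A count of 0 was set to 3 counts in ratios, or 0.0897 residual CPM for library A, 0.133 for B and 0.152 for C. Intervals are exact (Clopper-Pearson) and cover counting error only. With 1 group there was no test between conditions. Named transcripts were, per class, the highest isoform of the 2 highest assembler genes with at least 300 bp and 100 reads, the 5 largest ratios and the highest of each further pattern. Other names in the text were chosen after their values were seen. Tools were Python 3.11.15, pandas 2.3.3, scipy 1.17.1, edgeR 4.0.16 and DESeq2 1.42.0. Alternatives were TMM and DESeq2 scaling, minimum reads, P. strigosozonata matches, sums by assembler gene and leaving out each library.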

Additional observations from a re-analysis of the deposited data

How the results depend on the processing

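The median member level of 0.587 RPKM moved to 1.10 among P. strigosozonata matches and to 0.824 with at least 10 reads, which count fewer transcripts. With the reads of the same 275 members summed over 205 assembler genes, the median was 0.443. The median ran from 0.539 to 0.615 with 1 library left out, and was 0.586 with TMM and 0.581 with DESeq2 size factors. The sum of 8205 residual CPM was 5271 among P. strigosozonata matches and 8071 to 8328 with 1 library left out. It was 8201 with at least 10 reads, 8262 with TMM and 8203 with DESeq2 size factors, and summing by assembler gene left it unchanged. These last settings could hardly move it. They keep nearly all the same reads, and the TMM and DESeq2 depths were rescaled to the same average. Nothing is concluded from them.

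The 28 members over 2-fold became 56 of 173 (32.4%) with at least 30 reads, against 27.3% of all annotated transcripts, and 12 among P. strigosozonata matches. They were 25 with TMM, 25 with DESeq2 and 26 with the whole library total. With 1 library left out they numbered 7 to 14, where only 2 libraries enter the ratio.

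Among P. strigosozonata matches 6 of 10 class sums moved by more than 1 SD, the prolyl isomerases from 587 to 47.9 RPKM. The other 4 classes had no such member. With TMM all 14 class sums stayed within 1 SD, a wide limit with 3 libraries. TMM shifted the totals of libraries A, B and C by only 0.022, 0.015 and -0.038 on the log2 scale. Means over the libraries could therefore hardly move, and nothing is concluded from TMM either. Leaving out 1 of 3 libraries cannot move a mean by as much as 1 SD. That setting could therefore not fail the limit, and nothing is concluded from it. The 2 largest shifts of a library total by scaling were 0.05 and -0.04 on the log2 scale, for libraries A and C. No paired analysis was possible because the labels give a single group. Depth limits the 147 members with fewer than 100 reads, which enter no ratio count at the main minimum. The 2 of them named for reads almost wholly from library A rest on 30 and 71 reads.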

Other observations

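Assembler genes with chaperone members also held 16 isoforms without a database match, in 8 genes, and 9 isoforms matched to another product. The prefoldin beta-like gene TRINITY_DN24082_c0_g1 had 2 unmatched isoforms, i2 and i3, at 30.8 RPKM ± 10.04 and 33.97 ± 9.95 (SD, n = 3). In the order of libraries A, B, C, isoform i2 had 1970, 668 and 1240 counts and isoform i3 had 1888, 699 and 1208. The small heat shock transcript TRINITY_DN17928_c0_g1_i2 shared its assembler gene with 2 isoforms named cytochrome P450, at 2.40 and 2.02 RPKM.

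Between libraries, log2(residual CPM + 1) of the 128 members with at least 100 reads gave a Pearson correlation from 0.969 (A with B) to 0.982 (B with C) and a Spearman correlation from 0.922 to 0.955. Transcripts of an assembler gene are not independent points and how reads were divided among them is not known, so these values are descriptions.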
